A study of Mus musculus with 9 samples.

Results

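The 3 libraries described here were made from the midbrain of adult control mice, and were chosen by their genotype label, Dot1l +/+, from the 9 libraries of the series. Each control library was a pool of dissected tissue from animals of 180 days (P180) on a C57/Bl6 background. The animals carried Pitx3-Cre on a single allele and a Rosa-lox-stop-lox-Yfp reporter, and these 2 alleles were shared by every group of the series, so the controls were not wild type in the strict sense: Cre sat in the Pitx3 gene itself and could act only in cells that use this gene. The label of the tissue names dissected dopamine neurons of the midbrain. The design text of the series speaks of sorted embryonic cells instead, whereas the sample labels and the methods describe adult tissue with no sorting. The labels were followed, and each pool was read as the RNA of all cells in the dissected area. The sex of the animals was not given. The remaining 6 libraries, with 1 or 2 floxed Dot1l alleles, were not used here, and no genotypes were compared.

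Dopamine neurons of the ventral midbrain make dopamine from tyrosine with tyrosine hydroxylase (Th) and aromatic amino acid decarboxylase (Ddc). They load it into vesicles with the vesicular monoamine transporter (Slc18a2) and take it back up with the dopamine transporter (Slc6a3). These cells are known for their role in movement and reward and for their loss in Parkinson disease, and they are a small part of a tissue that also holds GABA and glutamate neurons, oligodendrocytes, astrocytes, microglia and vessels.

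The pools held 21052642, 23249074 and 26703270 counts, and 22933, 22989 and 23240 genes had a count. CPM values, meaning counts scaled to a common library size by the trimmed mean of M values, were used to compare 1 gene between pools. Levels of different genes were compared as TPM, a length-corrected unit, meaning counts per exonic base scaled so that all genes of a pool have the same sum. The exception is genes beside their near-identical copies, which are given as counts without correction for length. A gene was called detected at a mean of at least 1 CPM, and 15434 of 47729 genes were detected, 13660 of them protein-coding. The pools were not copies of each other: across genes with 10 or more counts in a pair of pools the chi-square per gene lay between 5.25 and 6.75, and the Pearson correlation of log2(CPM + 1) across 15434 genes lay between 0.994 and 0.995. Pool 1 stood apart from pools 2 and 3 in genes of the sex chromosomes: it held Y-linked RNA and little Xist RNA, with the values given beside the other differences between pools. With 1 group of 3 pools no test was run, and SD values measure only the spread between these pools.

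The most abundant RNAs came from the mitochondrial genome, which filled 8 of the 20 highest places by TPM and 13.3% of the summed TPM of all genes. mt-Cytb, a subunit of complex III of the respiratory chain, led with 24398 ± 1916 TPM (SD, n = 3). mt-Co1, the catalytic subunit of complex IV, reached 23929 ± 1675 TPM, and mt-Nd1, a subunit of complex I, reached 23579 ± 2712 TPM. These 3 overlapped between pools and had no fixed order. mt-Nd2 followed at 15897 ± 1504 TPM, then the ribosomal RNAs mt-Rnr2 (12070 ± 974 TPM) and mt-Rnr1 (10351 ± 919 TPM), with mt-Nd4 at 10942 ± 954 TPM and mt-Nd5 at 10033 ± 886 TPM. In counts, mitochondrial genes took 3.68%, 4.23% and 4.27% of the 3 pools.

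The other 12 places went to nuclear genes, among them genes of glial cells and secretion. Sparcl1, a secreted matrix protein of astrocytes, stood at 3477 ± 125 TPM, and Cpe, which trims neuropeptides and hormones, at 3453 ± 26.3 TPM. The myelin gene Mbp reached 1973 ± 146 TPM. Apoe, a lipid carrier made mainly by astrocytes, reached 2621 ± 151 TPM. Atp1b1, a subunit of the sodium pump, had 2499 ± 35.04 TPM. The chaperone Hsp90ab1 had 2179 ± 51.4 TPM. The last places went to the fatty acid desaturase Scd2 (1919 ± 16.7 TPM), the lysosomal protein Psap (1868 ± 30.9 TPM) and the protease inhibitor Cst3 (1863 ± 95.1 TPM). The counts were otherwise widely shared out: 1216 genes were needed to reach 50% of the counts, and the 10 genes with most counts held 4.74%, 5.18% and 5.29% of the 3 pools.

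**Figure D1:**
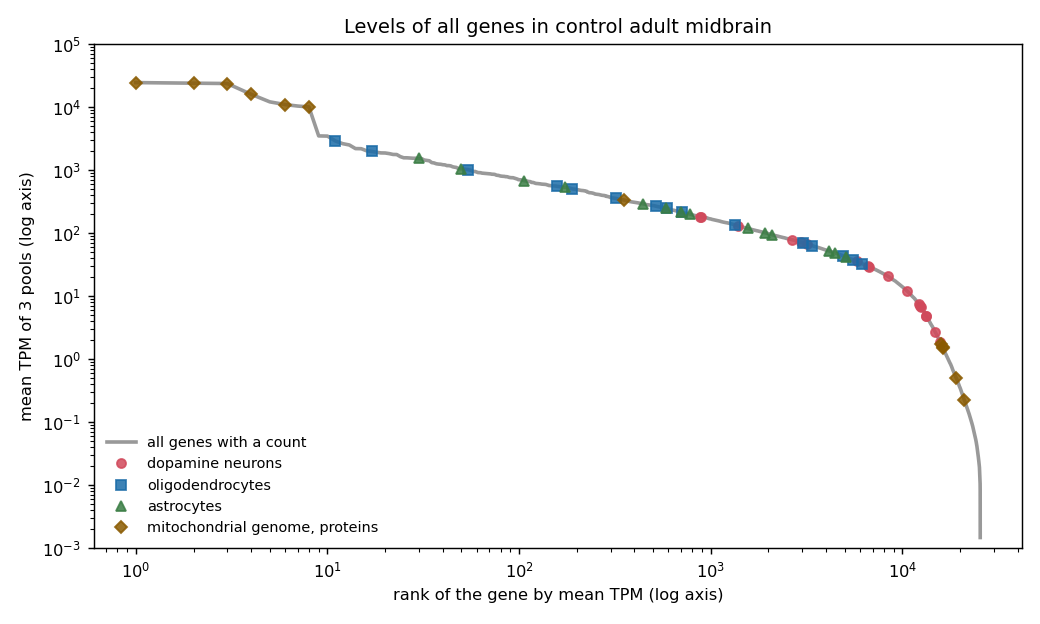
Mean TPM of each gene with a count in the 3 control pools against its rank, both on log axes, with the genes of 4 lists as symbols. Mitochondrial genes held 8 of the first 20 places (the symbols mark the protein-coding ones). Slc6a3, the dopamine neuron gene with the highest mean TPM by exon length, stood at rank 879.

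Seen by class of gene, protein-coding genes held 96.6%, 96.4% and 96.3% of the counts. Processed pseudogenes held 1.04%, 1.05% and 1.07%, and 739 of their 6667 members were detected. Long intergenic RNAs held 0.950%, 1.02% and 1.12%, with 241 of 3543 detected. Antisense genes were detected in 206 of 2359 cases. The median level of a detected gene was 23.8 TPM, and this value serves below as the yardstick for each list of genes. The list of long non-coding and ribosomal RNA-like genes was led by Meg3 (1048 ± 92.5 TPM) and Snhg11 (1032 ± 7.43 TPM), followed by Gm42418 (799 ± 86.3 TPM), a gene that overlaps ribosomal RNA sequence, and Malat1 (669 ± 27.5 TPM).

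Of the 18 genes listed for dopamine neurons, 17 were detected, and their median was 25.0 TPM beside 23.8 TPM for all detected genes. With coding length in place of exon length these medians were 16.0 and 21.5 TPM. Slc6a3 had 200, 178 and 171 TPM in the 3 pools, and Aldh1a1, an aldehyde dehydrogenase of a subset of these neurons, had 185, 185 and 174 TPM. The pools of these 2 genes overlapped, and their order depended on the length used: Aldh1a1 stood at 193 and Slc6a3 at 110 TPM with coding length, and at 301 and 145 TPM with the longest transcript. Th had 149, 134 and 111 TPM and lay below both in each pool, at rank 1381. Its spread was 84.0, 77.4 and 64.4 CPM, with pool 3 lowest. Ret, the receptor of the GDNF family, Ddc and Slc18a2 formed the next step at 78.1 ± 7.93, 71.2 ± 4.91 and 67.1 ± 3.27 TPM, and neighbours among them overlapped. With coding length Th lay below Ddc and Slc18a2.

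The transcription factors of these neurons were lower. Nr4a2 led them with 35.5 ± 2.77 TPM. Slc10a4, a vesicle protein, and Chrna6, a nicotinic receptor subunit, overlapped at 29.5 ± 3.43 and 29.3 ± 1.76 TPM, and the dopamine autoreceptor gene Drd2 (20.6 ± 2.64 TPM) and the nicotinic subunit Chrnb3 (12.03 ± 0.301 TPM) came next. En1 (7.498 ± 0.257 TPM), Foxa1 (6.89 ± 0.815 TPM) and En2 (6.80 ± 0.716 TPM) could not be ordered, nor could Lmx1b (4.86 ± 0.726 TPM) and Foxa2 (4.79 ± 0.698 TPM). Lmx1a stood at 2.71 ± 0.576 TPM, and its pools differed by 1.51 times (2.07, 1.85 and 2.80 CPM). Pitx3, the gene that carries Cre on the other allele, had the lowest mean at 1.86 ± 0.610 TPM, though it lay above Lmx1a in pool 2, and was the only member that missed the detection level: it had 9, 20 and 21 counts, or 0.424, 0.859 and 0.794 CPM.

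**Figure D2:**
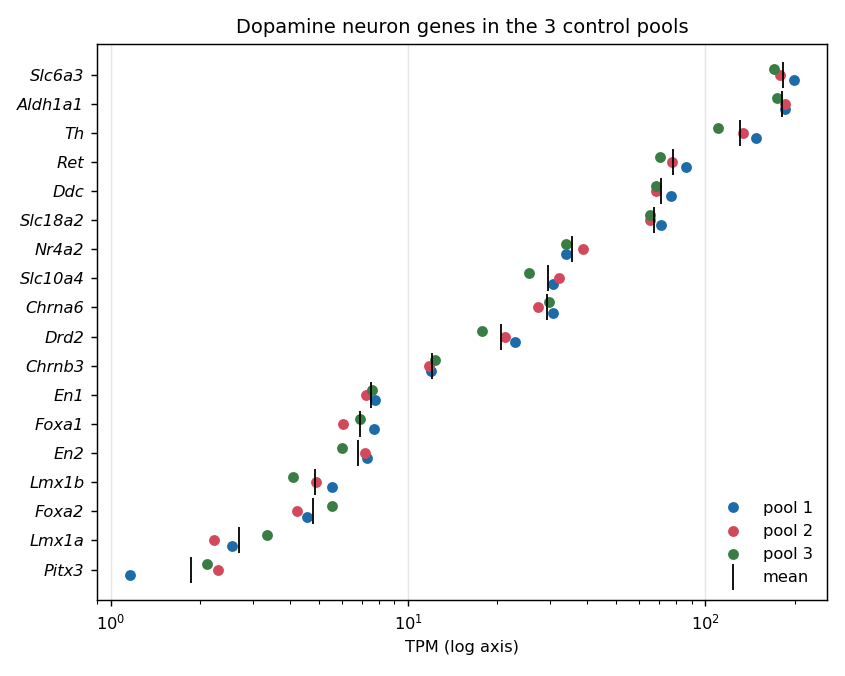
TPM of the 18 dopamine neuron genes on a log axis, with a point for each of the 3 pools and a bar at the mean. The levels ran from 183 TPM for Slc6a3 to 1.86 TPM for Pitx3, and the pools of neighbouring genes often overlapped.

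Upstream sequences of 3 genes of dopamine synthesis and transport and of Pitx3 are shown because their letters can be set against those of all genes. Each line gives the 150 bases before the start from RefSeq (GRCm38.p6), 5′ to 3′ on the strand of the gene. Capitals mark TGACGT and GGGCGG on either strand; TATAAA and CACGTG were also searched in these windows and were not found there. The windows were chr7:142899996-142900145 (minus strand) for Th, chr13:73536597-73536746 (plus) for Slc6a3, chr19:59260728-59260877 (plus) for Slc18a2 and chr19:46148326-46148475 (minus) for Pitx3.
Th: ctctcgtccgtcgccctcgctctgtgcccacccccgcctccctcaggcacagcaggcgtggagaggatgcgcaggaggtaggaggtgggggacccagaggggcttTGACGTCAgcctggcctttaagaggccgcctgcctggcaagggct
Slc6a3: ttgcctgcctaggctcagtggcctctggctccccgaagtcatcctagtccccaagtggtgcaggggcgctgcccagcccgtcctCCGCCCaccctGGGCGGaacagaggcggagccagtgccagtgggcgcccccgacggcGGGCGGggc
Slc18a2: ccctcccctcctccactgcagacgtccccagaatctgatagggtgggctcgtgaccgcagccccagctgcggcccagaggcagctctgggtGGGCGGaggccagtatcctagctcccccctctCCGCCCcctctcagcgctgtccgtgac
Pitx3: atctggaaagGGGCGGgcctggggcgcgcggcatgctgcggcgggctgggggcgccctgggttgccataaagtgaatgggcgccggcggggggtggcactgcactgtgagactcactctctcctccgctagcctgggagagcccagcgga

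In the Th window the run TGACGTCA holds TGACGT on both strands. Over whole promoter windows, which ran from 250 bases before to 50 after the start, TGACGT was present in 22.8% of 101 promoters of the 100 nuclear protein-coding genes of highest TPM, 70 of which had an entry. It was present in 10.8% of 13714 promoters of the other detected protein-coding genes, in 3.45% of 3250 promoters of genes with no count and in 7.51% of all 32851 promoters. GGGCGG, the core letters of a GC box, was found in 53.5% of the promoters of the top genes and 61.4% of those of the other detected genes, against 8.40% for genes with no count and 35.7% of all promoters. The letters TATAAA went the other way, at 10.9%, 7.10% and 29.0%, with 13.6% for all promoters. The mean GC content was 58.9%, 60.7% and 43.6% in the same order. It followed the order of GGGCGG and the reverse order of TATAAA, but not that of TGACGT, which was most frequent in the top genes, and its part in these shares was not tested. CCAAT varied less, between 30.9% and 42.0% over the groups of genes searched, with 37.4% of all promoters. ATGGCG stood at 27.9% of 68 ribosomal and 29.0% of 69 respiratory chain promoters against 8.93% of all. Read on the strand of the gene alone, it stood at 8.82% and 26.1% against 5.05% of all, so the likeness of these groups depended on the strand. GGAAGT stood at 47.1% and 33.3% in those 2 groups and at 9.90% in the top genes, with 23.8% of all. CACGTG ranged from 3.45% for genes with no count to 11.8% for ribosomal genes, with 7.15% of all promoters.

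Several lists of other cells in the dissected area had higher medians than the dopamine neuron list, and others had lower ones. The 15 oligodendrocyte genes, each of them detected, had a median of 245 TPM and summed to 8833, 8374 and 7987 TPM in the 3 pools, while the 18 dopamine neuron genes summed to 934, 874 and 814 TPM. Further high members beside Mbp were the myelin genes Mobp (1018 ± 63.1 TPM) and Cnp (552 ± 36.8 TPM), and the lowest was Aspa (32.4 ± 2.24 TPM), an enzyme of acetate supply to myelin. Astrocyte genes, 14 of 14 detected with a median of 206 TPM, were led by glutamine synthetase Glul (1529 ± 214 TPM), Aldoc (1045 ± 56.9 TPM), the glutamate transporter Slc1a2 (678 ± 54.9 TPM) and S100b (536 ± 3.54 TPM). Microglia genes, 12 of 12 detected, had a median of 49.3 TPM, with Trem2, a lipid receptor, lowest at 5.81 TPM. Genes of oligodendrocyte precursors reached a median of 31.3 TPM, and those of endothelium 27.7 TPM. Mural and meningeal genes (13.6 TPM) and genes of ependyma and choroid plexus (6.80 TPM) had medians below that of the dopamine neuron list. In bulk tissue, fewer cells of a type and less RNA per cell cannot be told apart.

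Among the neuron lists, that of GABA neurons had the highest median at 179 TPM, while single genes of the glutamate and thalamic lists reached levels like those of its leading members. Gad2 and Gad1, which make GABA, stood at 304 ± 17.0 and 265 ± 12.5 TPM. Somatostatin (Sst) reached 247 ± 23.5 TPM. The vesicular glutamate transporter genes Slc17a7 and Slc17a6 overlapped at 292 ± 36.7 and 256 ± 28.2 TPM, which placed both above Slc6a3 in each pool. Slc17a7 is used mainly by cortical and hippocampal neurons and Slc17a6 by subcortical ones. Genes listed for cortical and hippocampal neurons were detected in 10 of 10 cases with a median of 18.1 TPM, led by Neurod6 (93.6 ± 16.9 TPM). Those listed for thalamus and habenula were detected in 8 of 8 cases with a median of 36.9 TPM, led by Calb2 (297 ± 34.1 TPM). A list does not place an RNA in its region: the paper gives qPCR primers for Calb2 beside those for dopamine neuron genes. For serotonin neurons 5 of 6 genes were detected, but Tph2, their defining enzyme, stood at 5.81 ± 3.67 TPM and Fev at 0.442 TPM. Cholinergic neurons had 2 of 5 genes detected, with Chat at 0.568 TPM, hypothalamic neurons 5 of 12, and the histamine enzyme Hdc stood at 3.08 ± 1.04 TPM. No noradrenergic gene of 4 was detected, and Slc6a2 had no count in any pool, which allows up to 0.141, 0.129 and 0.113 CPM by counting error. None of 18 Hox genes, which mark the hindbrain and spinal cord, reached a mean of 1 CPM, although Hoxb3 and Hoxb5 had 1.36 and 1.21 CPM in pool 3.

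**Figure D3:**
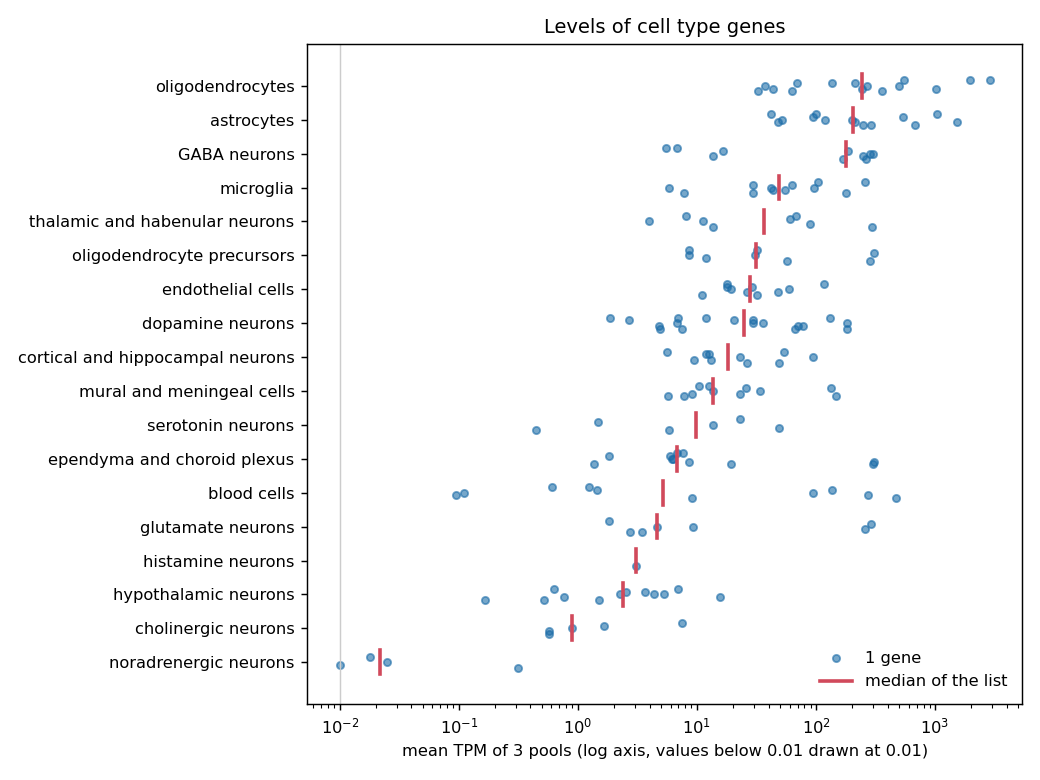
Mean TPM of every measured gene in 18 cell type lists on a log axis, with the median of each list as a bar and values below 0.01 TPM drawn at 0.01. Oligodendrocyte, astrocyte and GABA neuron lists had the highest medians, the dopamine neuron list stood at 25.0 TPM, and noradrenergic genes were near the bottom of the scale.

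Genes of dopamine handling beyond the markers were measured for the whole route. Qdpr, which regenerates the cofactor of Th and is used by other cells as well, had 714, 665 and 594 TPM, while Gch1, the first enzyme of cofactor synthesis, had 3.84, 4.29 and 4.25 TPM. The members of this route thus spanned from under the median of detected genes to well above it. Of the receptors, Drd2 was the highest, followed by Drd5 (9.32 ± 0.970 TPM) and Drd1 (4.39 ± 0.364 TPM), whose pools did not overlap. Drd5 shared 85.6% of its coding words, defined below, with other genes. Drd3 and Drd4 were under 1 CPM. Genes of familial Parkinson disease were detected in 14 of 14 cases with a median of 76.5 TPM: Pink1 had 422 ± 5.97 TPM, Synj1 321 ± 12.7 TPM and Dnajc6 301 ± 13.4 TPM.

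Receptors for other transmitters were mostly detected. All 16 subunits of AMPA, kainate and NMDA receptors passed 1 CPM with a median of 37.7 TPM, led by Gria1 (390 ± 16.6 TPM) and Gria2 (214 ± 9.12 TPM), with Grin3b lowest at 1.76 TPM. GABA-A subunits were detected in 14 of 15 cases, and Gabra6, a subunit of cerebellar granule cells, was the exception at 0.167 TPM. Glycine receptor genes were led by the shared beta subunit Glrb (325 ± 6.20 TPM), above Glra2 (31.7 ± 1.37 TPM). Nicotinic subunits followed the order Chrna4 (87.1 ± 3.58 TPM), Chrnb2 (46.7 ± 1.16 TPM), Chrna6 and Chrna7 (18.7 ± 0.586 TPM), and Chrnb4 was last at 0.995 TPM. Among metabotropic glutamate receptors Grm5 led with 103 ± 4.74 TPM, and Grm6, a retinal receptor, had 0.0121 TPM. Serotonin receptors were led by Htr2c (71.0 ± 2.68 TPM), with Htr3b listed at 0.

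The machinery of transmitter release was among the highest lists, with 25 of 25 genes detected and a median of 606 TPM. Cplx1 (1547 ± 63.2 TPM), Snap25 (1256 ± 44.2 TPM), Dnm1 (830 ± 35.8 TPM) and Cplx2 (824 ± 57.5 TPM) led it. Cytoskeleton genes of neurons had a median of 436 TPM, led by Tubb4a (1440 ± 52.7 TPM), Kif5a (1294 ± 41.4 TPM) and Stmn3 (1234 ± 107 TPM), and ended with Prph (7.44 ± 1.66 TPM), an intermediate filament of peripheral and cholinergic neurons. Calcium-binding proteins also had a median of 436 TPM, and sodium and calcium pumps 361 TPM. With coding length these 3 medians were 301, 886 and 195 TPM, so their likeness rests on the length used. Sodium, calcium and HCN channels reached a median of 47.7 TPM (26.3 TPM with coding length), and Hcn2 was among the highest with 308 ± 19.4 TPM.

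Genes of energy metabolism had medians above that of all detected genes. Nuclear genes of the respiratory chain and ATP synthase were detected in 74 of 78 cases with a median of 119 TPM. Atp5b (1161 ± 41.8 TPM) and Atp5a1 (1126 ± 60.8 TPM), the catalytic head of ATP synthase, led the list, followed by the complex IV genes Cox4i1 (756 ± 45.3 TPM) and Cox8a (703 ± 43.0 TPM). Complex I was led by Ndufc2 (324 ± 17.6 TPM) and Ndufb9 (319 ± 24.3 TPM). Its 36 genes summed to 4738, 4724 and 4195 TPM, and 27 of them were lowest in pool 3, as were 32.1% of all detected genes. In all, 3 of the 74 genes differed by 1.5 times, beside 7.06% of all detected genes: Ndufs5 had 2.26, 4.64 and 1.93 CPM, Atp5k 4.90, 6.02 and 3.36 CPM, and Cox7c 3.91, 2.84 and 4.35 CPM. Glycolysis had a median of 157 TPM over 18 genes, with Aldoa (1515 ± 66.3 TPM), Aldoc, Pkm (784 ± 55.6 TPM) and the neuronal enolase Eno2 (729.5 ± 17.4 TPM) in front. Gapdh, a gene of the same pathway that is often used as a reference and was picked out after its values were seen, stood at 7.96 TPM and at 8.05, 7.69 and 8.28 CPM.

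That low value led to a measurement of how much of each coding sequence occurs elsewhere, a comparison chosen after these levels were seen. For each gene the longest coding sequence was divided into all its words of 31 bases, and the share of words that also occur in transcripts of another gene was taken. Gapdh shared 94.3% of its words. In the mitochondrial genome, mt-Nd1 shared 0%, mt-Cytb 6.55% and mt-Nd2 13.5%, whereas mt-Co2, mt-Atp6 and mt-Nd4l shared 100%, mt-Co3 99.9% and mt-Nd3 99.0%. Between them lay mt-Co1 (63.8%) and mt-Nd4 (62.8%), both among the most abundant genes. The 5 genes with the highest shares had 0 to 11 counts in any pool: mt-Co2 had 8, 3 and 7 counts, mt-Co3 7, 4 and 9, mt-Atp6 4, 11 and 5, mt-Nd3 1, 1 and 1, and mt-Nd4l 1, 0 and 0. Their closest copies lay in a row on chromosome 1, between Gm10222 (from 24612407) and Gm28661 (to 24615565, GRCm38), and had few counts as well: Gm28661 had 4, 7 and 3, Gm28437 10, 5 and 6, and Gm28438, the copy of mt-Nd3, 43, 58 and 55. mt-Nd6, encoded on the other strand, had 335 TPM and shared 7.41%. mt-Atp8 had no count although it shared only 5.85% of its words, and its 3′ end overlaps mt-Atp6.

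Stretches of 60 coding bases are printed with their closest annotated copy to show what a read would have to tell apart. Differences within a pair are in capitals. mt-Co3 (mitochondrial genome, 8607 to 9390) and Gm28437 (chr1:24613189-24613971, minus strand) are shown from the first coding base. mt-Co1 (mitochondrial genome, 5328 to 6872) and Gm13340 (chr2:22588103-22589647, minus strand) are shown from base 460 of either. Rpl4 (chr9:64173375-64178666, plus strand) is shown from coding base 100, beside Gm5835 (chr1:143093347-143094616, minus strand).
mt-Co3: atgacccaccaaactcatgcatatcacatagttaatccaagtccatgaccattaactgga
Gm28437: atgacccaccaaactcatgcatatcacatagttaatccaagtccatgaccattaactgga
mt-Co1: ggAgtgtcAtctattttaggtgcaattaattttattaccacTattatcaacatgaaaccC
Gm13340: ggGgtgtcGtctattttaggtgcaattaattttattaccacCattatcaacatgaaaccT
Rpl4: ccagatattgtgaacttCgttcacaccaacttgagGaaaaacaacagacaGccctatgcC
Gm5835: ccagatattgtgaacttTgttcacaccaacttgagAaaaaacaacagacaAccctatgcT

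mt-Co3 and its copy were identical over 783 aligned bases, and both were nearly empty of counts. mt-Co1 was 97.6% identical to its copy over 1542 bases and had 172619, 220612 and 249042 counts against 59, 75 and 73 for the copy. Rps29, a protein of the small ribosomal subunit, had 3, 4 and 7 counts, while Gm14303, 1 of its 9 pseudogene copies, had 305, 435 and 301. Rpl4, of the large subunit, had 5963, 6789 and 7304 counts, more than the 1407, 1645 and 2014 of Gm5835. How the reads of identical copies had been assigned was not given in the sources used here, so the level of a gene with near-identical copies is uncertain.

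Ribosomal proteins are a family with many annotated copies. Of 78 genes 68 were detected, with a median of 17.4 TPM, and the family ranged from Rplp1 (1175 ± 41.1 TPM), Rpl4 (579 ± 18.4 TPM) and Rpl8 (517 ± 33.2 TPM) down to Rpl35 (0.630 ± 0.282 TPM). In the small subunit Rps15 (458 ± 19.2 TPM) and Rps3 (154 ± 5.56 TPM) were among the highest, and Rps29 was last (1.14 TPM). The 51 genes that shared 90% or more of their coding words had a median of 11.9 TPM, the 22 genes between 50% and 90% one of 42.3 TPM, and the 4 genes between 10% and 50% one of 335 TPM. The single gene below 10% lay under that last median. Across the 78 genes the Spearman correlation of shared words with TPM was -0.64, given as a description, since these genes share libraries and length bias. It was -0.37 over the 78 nuclear respiratory chain genes and -0.00061 over 13646 detected protein-coding genes. In 35 of 78 genes the annotated pseudogene copies together had more counts than the gene in each of the 3 pools. Over the family, copies held 38.4%, 38.9% and 39.5% of the counts of genes and copies combined. For the nuclear respiratory chain genes that share was 4.11%, 4.29% and 4.52%.

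**Figure D4:**
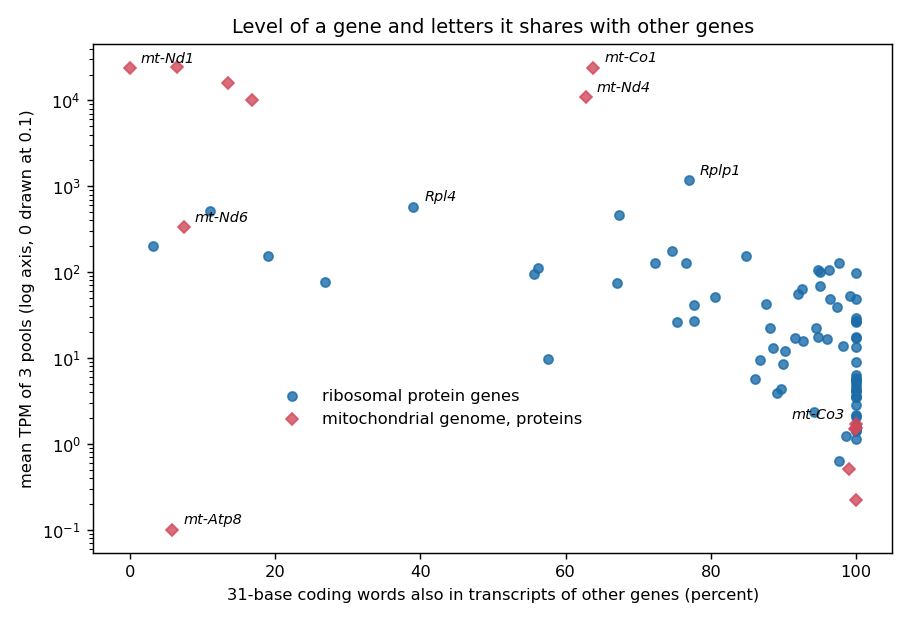
Mean TPM on a log axis against the percent of 31-base coding words that also occur in transcripts of other genes, for 78 ribosomal protein genes and 13 protein genes of the mitochondrial genome. Genes at the right edge reached at most 127 TPM, and the mitochondrial genes there lay under 2 TPM, while mt-Atp8 had no count at 5.85% shared words.

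Chromatin genes were at moderate levels. Dot1l, the methyltransferase for lysine 79 of histone H3, had 1801, 1868 and 2266 counts, or 84.8, 80.3 and 85.7 CPM, at 39.4 ± 1.60 TPM and rank 5314. The list of Dot1l and its partners in transcription elongation, which counts Dot1l itself, was detected in 12 of 12 cases with a median of 34.4 TPM, from Aff4 (112 ± 5.04 TPM) to Ell2 (10.8 ± 0.748 TPM). Of 25 histone lysine methyltransferases 25 were detected at a median of 27.6 TPM. Ehmt2 (115 ± 9.38 TPM) and Setd7 (102 ± 6.83 TPM) led, and Prdm9, a gene of meiosis, was last at 3.33 TPM.

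The median coefficient of variation (CV, SD over mean) of the 15434 detected genes was 6.05%, where counting alone gives a median of 4.24%. For genes with a mean of 1 to 10 CPM the median CV was 12.6% beside 10.9% from counting, for 100 to 1000 CPM it was 3.63% beside 1.59%, and for the 62 genes above 1000 CPM it was 3.75% beside 0.539%. The common biological CV from edgeR was 7.28%. The highest pool was at least 1.5 times the lowest in 1090 of 15434 detected genes (7.06%), and in 80 of 10619 genes (0.753%) with a mean of at least 10 CPM. At 2 times it was 13 of the same 10619 genes (0.122%). Of the 80 genes, 67 were protein-coding. The pool that stood farthest from the middle one was pool 1 in 30 of the 80, being high in 7 and low in 23, while pool 3 was high in 18 and low in 12.

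The steadiest genes varied less than counting alone gives on average, as the extremes of many genes do. Ube2a, a ubiquitin-conjugating enzyme, had 36.3, 36.3 and 36.3 CPM, with a CV of 0.0420% beside 3.43% from counting. Stx7, a syntaxin of endosomes, had 130, 129 and 130 CPM, and Prepl, a peptidase-like protein, 654, 654 and 652 CPM. Glb1, Tmeff2, Wipi2, Gnal, Las1l, Abcg4 and Yaf2 completed the 10 with the smallest CV.

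**Figure D5:**
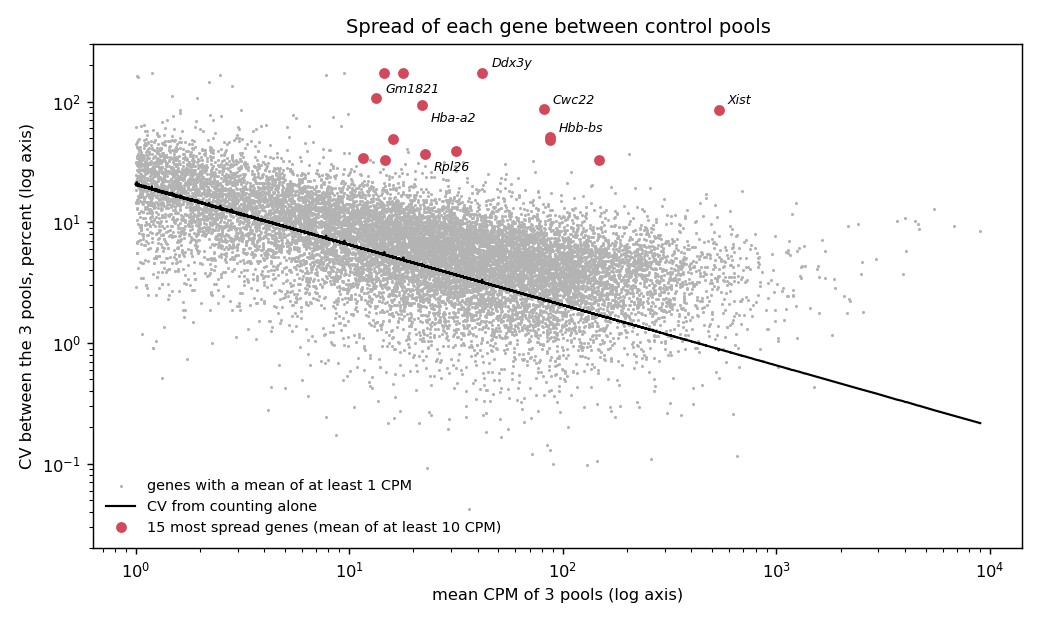
CV between the 3 pools against mean CPM for detected genes, both on log axes, with the CV from counting alone as a line and the 15 most spread genes with a mean of at least 10 CPM as large points. Most genes lay near the line at low levels and above it at high levels, and Ddx3y, Xist and Cwc22 stood far above.

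Genes of the sex chromosomes differed most. Xist, which is transcribed from the inactive X chromosome of female cells, had 6.88, 778 and 824 CPM, and the highest pool was 119.9 times the lowest. The Y-linked genes ran in the opposite direction: Ddx3y had 2670, 0 and 1 counts, Eif2s3y 1141, 0 and 1, Kdm5d 929, 0 and 1, and Uty 604, 0 and 1. Sex was not given in the labels, and what goes with these genes in pool 1 cannot be told apart from any other feature of that pool. On the X chromosome as a whole, 39 of 570 detected genes (6.84%) differed by 1.5 times, near the share of all detected genes.

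Cwc22, a splicing factor gene on chromosome 2 (77881159 to 77946375, GRCm38), came next with 77.2, 13.3 and 154 CPM, a ratio of 11.6 between the highest and lowest pool. It shared 56.3% of its coding words with other genes. The pseudogene Gm1821 had 5.09, 29.9 and 5.18 CPM, with pool 2 high. Rpl26 had 26.0, 13.1 and 28.5 CPM, while its 9 annotated copies together had 6.45, 20.5 and 8.77 CPM, most of them in Gm15772. The sum of gene and copies was 32.5, 33.6 and 37.3 CPM and differed by 1.15 times. Among ribosomal genes 9 of 68 detected differed by 1.5 times (13.2%, beside 7.06% of all detected genes), including Rpl34 (17.6, 32.4 and 33.1 CPM) and Rplp0 (59.0, 55.2 and 38.7 CPM).

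Genes of red blood cells fell into a common order over the pools. The beta-globin gene Hbb-bs had 133, 82.3 and 45.0 CPM, Hbb-bt 24.1, 15.2 and 8.58 CPM, and the alpha-globin genes Hba-a1 and Hba-a2 68.7, 55.6 and 36.4 CPM and 45.3, 13.0 and 7.48 CPM. Alas2, the heme enzyme of red cells, had 7.82, 5.41 and 2.49 CPM. Pool 1 was the highest and pool 3 the lowest in these 5 genes. The other detected gene of the list, the white cell gene Ptprc, had the reverse order with 5.04, 5.07 and 6.43 CPM. The 10 blood genes took 0.0287%, 0.0177% and 0.0106% of the counts. The globin genes of each pair share over 90% of their coding words. The inducible heat shock genes Hspa1a (10.3, 5.59 and 4.35 CPM) and Hspa1b (9.42, 4.25 and 4.95 CPM), themselves near copies, were also highest in pool 1. Most of their list was not: of 17 detected heat shock genes and co-chaperones 4 were highest and 7 lowest in pool 1, and the third that differed by 1.5 times, Hspb1, had 1.60, 2.66 and 1.85 CPM.

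Several genes listed for the choroid plexus, the tissue that secretes cerebrospinal fluid, were lowest in pool 2. Ttr, its transthyretin gene, had 116, 39.5 and 107 CPM, Clic6 8.57, 4.64 and 8.43 CPM, Kcnj13 2.45, 0.988 and 2.27 CPM, and Folr1 1.37, 0.645 and 1.02 CPM. The ciliary gene Ccdc153 of ependymal cells did not share this order, with 4.00, 3.05 and 2.27 CPM. Of the 10 detected genes of the ependyma and choroid plexus list, 6 were lowest in pool 2 and 4 in pool 3. The shares of all detected genes were 33.1% and 32.1%. In all, 6 of 10 detected genes of this list differed by 1.5 times, beside 7.06% of all detected genes and 1010 of the 4815 genes with a mean of 1 to 10 CPM, where 5 of the 6 lay. The serotonin genes Tph2 (4.62, 1.25 and 6.35 CPM) and Slc6a4 (2.03, 0.172 and 2.65 CPM, from 43, 4 and 70 counts) were also lowest in pool 2, whereas the other 3 detected genes of that list, Maob, Htr1a and Gata3, were lowest in pool 3. Pmch, a peptide of the lateral hypothalamus, stood at 7.21, 0.473 and 0.756 CPM with pool 1 high. Avp, or vasopressin, which missed the detection level, had 1, 2 and 56 counts with pool 3 high. Of the 5 detected genes of the hypothalamic list, 4 differed by 1.5 times, beside 7.06% of all detected genes. The highest pool was pool 2 in 3 of the 5, pool 1 in 1 and pool 3 in 1. Of the cortical and hippocampal genes 8 of 10 were highest in pool 3, beside 38.2% of all detected genes, and none differed by 1.5 times. Neurod6 had 45.9, 41.8 and 59.5 CPM. In the glutamate neuron list 4 of 7 detected genes differed by 1.5 times, beside 7.06% of all detected genes. In this list 5 of 7 were highest in pool 3, beside 38.2%. Among the 4 was Slc17a8, a vesicular glutamate transporter, with 2.26, 2.28 and 4.95 CPM. Whether the dissected areas differed between pools was not tested.

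Of the 17 detected genes of dopamine neurons 1, Lmx1a, differed by 1.5 times (5.88%), near the 7.06% of all detected genes. The median CV of the list was 8.61%, above the 6.05% of all detected genes. The listed genes were highest in pool 1 in 9 of 17 cases and lowest in pool 3 in 9 of 17. Of all detected genes, 29.4% were highest in pool 1 and 32.1% lowest in pool 3. Oligodendrocyte genes were highest in pool 1 in 9 of 15 cases and lowest in pool 3 in 9 of 15, with a median CV of 4.20% and no member past 1.5 times. GABA neuron genes were highest in pool 1 in 8 of 10 cases and lowest in pool 3 in 8 of 10. Astrocyte genes did not share this order, with 4 of 14 highest and 7 of 14 lowest in pool 1. Other genes among the most spread were Ccn3, a secreted matrix protein, with 26.9, 22.4 and 45.5 CPM, the relaxin receptor Rxfp1 with 7.63, 15.5 and 11.8 CPM, and the antisense RNA A830036E02Rik with 14.4, 19.7 and 10.02 CPM. Counts of A830036E02Rik depend on how strand was used in counting, which was not given in the sources used here.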

How the data were processed

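RNA of dissected adult midbrain, 3 tissue samples to a pool, was made into directional libraries and sequenced by the authors, who aligned them to the GRCm38.p4 build. The files they deposited give an unnormalized count for each Ensembl identifier. Per the labels, bcl2fastq 2.17, Trimmomatic 0.30 and DESeq2 1.10.1 were used. The aligner, the counter and the annotation release were not given in the sources used here. The deposited tables of genotype comparisons hold means, log2 fold changes, standard errors and p-values, and were not used.

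Counts of the 3 Dot1l +/+ pools, 21052642 to 26703270 in each, were scaled with edgeR 4.0.16 (R 4.3.3) and matched to GENCODE M21, with 419 of 47729 identifiers unmatched (0.0562% of the counts). TPM used the union of exons. Copies were annotated genes with at least 90% identity over at least 80% of the coding bases (BLAST 2.17.0). Scripts ran in Python 3.11.15 and were tested on simulated data.

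The pools and the 55 gene lists were chosen with earlier results of these data known. Named genes were the 20 highest by TPM, up to the 4 highest and the lowest of each list and members spread by 1.5 times, all dopamine neuron genes, Dot1l, Pitx3, and the 15 most and 10 least spread genes with a mean of at least 10 CPM. Copies, Gapdh, Uty and other genes named outside this rule were chosen after their values were seen. Some genes that the rule names are not reported here. With counts from 3 pools, a gene at 0 may reach 0.141, 0.129 and 0.113 CPM (3 counts), by counting error only. Alternatives covered scaling, filters, depth, length and leaving out each pool.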

Additional observations from a re-analysis of the deposited data

How the results depend on the processing

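No paired analysis was possible because a single group was described and no test was run. Of the alternative values for the main summaries, 36 moved by less than the set limits and 19 moved further. Detected genes rose from 15434 to 25632 when at least 1 count in any pool sufficed. Genes spread by 1.5 times numbered 1090 (7.06%) with all pools and 508 to 589 (3.29% to 3.82%) with a pool left out, where a pair of pools remains. They numbered 80 (0.753%) at a mean of at least 10 CPM, 5216 (25.1%) with at least 1 count in each pool, and 255 (1.65%) at 2 times. The 10 genes with most counts held 5.07% of counts. With genes ranked anew, the first 10 held 2.85% without mitochondrial genome and rRNA-like genes, and the first 10 by TPM held 13.8% of TPM. Of the 20 genes of highest TPM, 13 stayed among the first 20 with coding length. Without mitochondrial and rRNA-like genes 12 were left by construction, since 8 of the 20 belong to the mitochondrial genome. The correlation of shared words with TPM was -0.65 with coding length, an alternative chosen after seeing the data. GGGCGG fell from 61.4% to 41.4% of promoters of other detected genes when only the strand of the gene was read. Of the 55 list medians, 43 moved by more than the spread between pools with coding length and 36 with the longest transcript. With coding length, calcium-binding proteins rose from 436 to 886 TPM, while lower medians were found for pumps (195 TPM), familial Parkinson disease genes (46.7 TPM), channels (26.3 TPM), endothelium (18.4 TPM) and dopamine neurons (16.0 TPM, and 19.8 TPM with the longest transcript). Under coding length Aldh1a1 and Slc6a3 changed places (193 and 110 TPM), and Th fell to 65.9 TPM, below Ddc (71.5 TPM) and Slc18a2 (73.4 TPM). With the longest transcript Th had 126 TPM beside 125 TPM for Ddc, so the order of these genes depends on the length used. Depth limits genes under 10 CPM, where counting makes up most of the spread.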

Other observations

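Genes of the circadian clock were detected in 18 of 18 cases with a median of 41.0 TPM. The clock output factor Tef led with 177 ± 7.97 TPM, before the repressor Nr1d2 (115 ± 3.51 TPM), and Ciart was lowest at 9.85 ± 0.387 TPM. Immediate early genes, which neurons switch on with activity, were detected in 16 of 17 cases, led by Jund (148 ± 20.9 TPM), Jun (143 ± 20.4 TPM) and Arc (72.3 ± 0.417 TPM). Antioxidant genes were detected in 22 of 22 cases with a median of 88.6 TPM, led by the peroxiredoxin Prdx5 (264 ± 21.5 TPM) and the metallothionein Mt2 (249 ± 8.98 TPM). Proteasome core genes were detected in 17 of 18 cases, led by Psma6 (255 ± 17.1 TPM), and the germ cell subunit Psma8 was last at 0.835 TPM.

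Opioid genes were detected in 8 of 8 cases. The nociceptin receptor Oprl1 stood at 85.6 ± 0.956 TPM and the enkephalin precursor Penk at 82.0 ± 8.77 TPM, while the mu receptor Oprm1 was lowest at 2.02 ± 0.0847 TPM. Among neurotrophic genes the BDNF receptor Ntrk2 led with 154 ± 2.85 TPM, above Ret and Gfra1 (57.2 ± 0.991 TPM), and Gfra3 had no count.

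The following genes were chosen after their values were seen. The X-linked genes Kdm6a (39.8, 60.3 and 61.4 CPM), Eif2s3x (7.44, 11.2 and 13.7 CPM), Ddx3x (366, 481 and 472 CPM) and Kdm5c (69.8, 88.9 and 89.1 CPM) were lowest in pool 1. Hoxb3, a hindbrain gene under the detection level, had 18, 1 and 36 counts. Gm11966, with 87 exonic bases, had 541, 611 and 718 counts and a level of 1241 TPM, a value that rests on this short length.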
